A study of Homo sapiens with 6 samples.

Results

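The transcripts of 10 nuclear genes whose proteins make, stabilise or degrade the RNA of mitochondria were followed in SH-SY5Y cells given SGC707 or its solvent DMSO. The genes were chosen by name as TFAM, POLRMT, TFB2M, TEFM, LRPPRC, SLIRP, TBRG4, GRSF1, SUPV3L1 and PNPT1, and all 10 were among the 19610 gene rows of the count table and among the 12196 genes with enough counts to be tested. SH-SY5Y is an established human neuroblastoma line, labelled wild type here, and SGC707 is an allosteric inhibitor of the arginine methyltransferase PRMT3. Bulk mRNA libraries were made from 3 samples given DMSO and 3 given SGC707, lettered A to C in each group. The sources used here give neither the dose nor the duration of treatment. Nothing in the labels says that the letters stand for separate cultures, so a p-value reflects only how far these libraries scatter, and that scatter may be technical.

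The mitochondrial genome is read as long RNAs from promoters on its strands by a single-subunit polymerase, POLRMT, together with the DNA-packaging factor TFAM and the promoter-opening factor TFB2M, and TEFM keeps the polymerase moving. The long RNAs are cut into mRNAs, rRNAs and tRNAs, and the mRNAs are held by the LRPPRC and SLIRP complex, while GRSF1 marks the granules where new RNA is handled. RNA is degraded by a complex of the helicase SUPV3L1 and the exonuclease PNPT1. All of these proteins are encoded in the nucleus and imported, and many of their genes carry promoter sites for the nuclear respiratory factor NRF1 or the ETS-family factor GABP.

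The promoter letters of these genes are shown because NRF1 and GABP are known regulators of many genes of this kind. Whether either factor regulates these 10 genes here was not tested. Each RefSeq window, on build GRCh38.p14, runs from 250 bases before to 50 bases after the gene's start. All 10 genes had a window, and GRSF1 and SLIRP had a second from another start. Both strands were searched for the NRF1 core GCGCATGCG, for the same core with its middle base open (GCGCNTGCG) and for the ETS site CCGGAAG. The stretches below are written 5′ to 3′ on the strand of the gene, with the matched letters in capitals and 10 bases on each side.

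POLRMT: ggcggcgcggGCGCATGCGcaggcgcggg
TFB2M: ctccgctgttCGCATGCGCaggctctagt
TFAM: acgctctcccGCGCCTGCGccaattccgc
TEFM: cacgcaggaaCCGGAAGtcaatggagg
SLIRP: accctctgatCCGGAAGcagattctct
TBRG4: aaaggtgtggCCGGAAGctggaggcgt

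The POLRMT stretch lies at chr19:633543-633571 on the minus strand and the TFB2M stretch at chr1:246566259-246566287 on the minus strand, where the core is read on the opposite strand from the gene. The TFAM stretch lies at chr10:58385337-58385365 on the plus strand and matches only with the open base. The ETS matches shown lie at chr17:30906228-30906254 on the minus strand for TEFM, at chr14:77708017-77708043 on the plus strand for SLIRP and at chr7:45111778-45111804 on the minus strand for TBRG4. Further ETS matches, read on the opposite strand from the gene, lie within chr7:45111759-45111785 for TBRG4 and within chr19:633614-633640 for POLRMT. The exact NRF1 core was present in 2 of the 10 genes and in 1.92% of all 35116 windows. With the open base it was present in 3 of the 10 genes and in 7.47% of all windows. In POLRMT the core overlaps its own reverse complement and a further match with the open base. The ETS site was present in 4 of the 10 genes, POLRMT being the fourth, and in 10.3% of all windows. These shares count windows, while the numbers out of 10 count genes. Counted by gene, 4.34% of tested genes with a window held the exact core, 17.7% the open core and 23.2% the ETS site. Of 49 further genes of mitochondrial DNA copying, RNA handling and regulation with a window, 8.16%, 18.4% and 38.8% held them. LRPPRC, GRSF1, SUPV3L1 and PNPT1 held none of these letters in their windows, which says nothing about whether either factor acts on them.

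The libraries held between 11658728 and 15437602 counts. Messages encoded in the mitochondrial genome took 46.7 to 60.7% of the counts in DMSO and 24.3 to 37.7% in SGC707, which left 6066305 to 6327895 nuclear counts per library in DMSO and 7559322 to 8999358 in SGC707. For this reason levels are given as normalised CPM, the depth-scaled unit of counts after TMM scaling, which sets libraries level on the bulk of their genes. SGC707 C differed from the rest in composition. Across 11583 nuclear genes, the Spearman correlation of its deviation from the mean of all libraries with GC content was -0.77, against -0.14 to 0.53 in the other libraries. This is a description across genes, which are not independent. Of 11 adrenergic neuroblastoma markers 10 were expressed well enough to be tested, with a summed level of 5247 to 6405 normalised CPM in DMSO and 4314 to 4762 in SGC707, while TH was at 0 counts in all 6 libraries. The Schwann-like marker SOX10 and the leukocyte marker PTPRC were at 0 as well. The part of the lower adrenergic sum in the results was not tested.

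None of the 10 genes differed between SGC707 and DMSO by edgeR's quasi-likelihood test at an adjusted p under 0.05. Over all tested genes 3 of 12196, or 0.0246%, passed. At an unadjusted p under 0.05 the 10 genes again gave 0, against 12.8% of all tested genes. DESeq2 called none of them, against 288 of 15260 genes, and limma-voom none, against 2 of 12196. Of the 10 fold changes in edgeR 6 were positive and 4 negative. Their median was 0.12 on the log2 scale, beside 0.02 over all tested genes. The levels of SGC707 libraries lay wholly above those of DMSO for TFB2M and TEFM, against 10.8% of all tested genes. They lay wholly below for SUPV3L1 alone, against 9.78% of all tested genes. In RNA from a whole culture, fewer cells expressing a gene and less of its RNA per cell cannot be told apart.

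**Figure D1:**
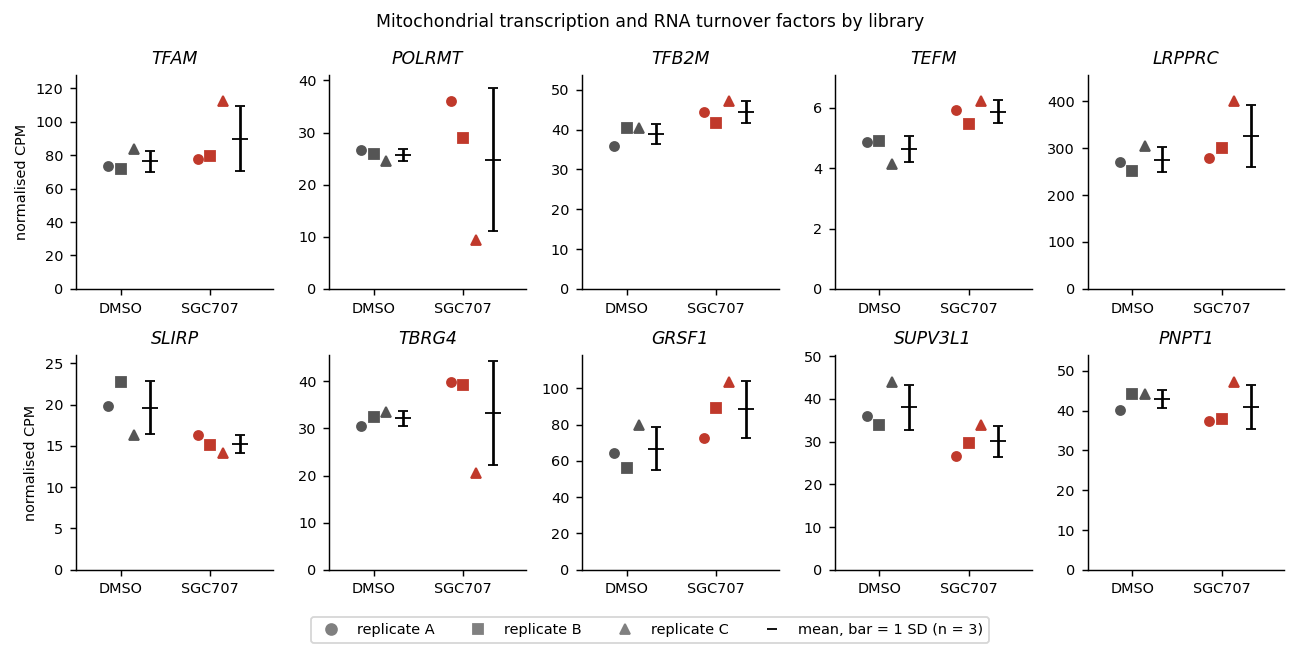
Normalised CPM (y axis, from 0) of each of the 10 genes in the DMSO and SGC707 libraries (x axis), with circles, squares and triangles for replicates A, B and C, and the mean with a bar of 1 SD (n = 3). SGC707 C is the lowest library for POLRMT, TBRG4 and SLIRP and the highest for TFAM, TFB2M, TEFM, LRPPRC, GRSF1 and PNPT1.

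The transcription machinery showed small differences of mixed sign. TFAM (chr10:58385022-58399221, plus strand), which packages mitochondrial DNA and bends it at promoters, stood at 73.6, 71.9 and 83.5 normalised CPM in DMSO A, B and C and at 77.6, 79.6 and 112.4 in SGC707 A, B and C. SGC707 C was the highest library, and SGC707 A and B lay within the DMSO range. The means were 76.3 ± 6.30 and 89.8 ± 19.5 (SD, n = 3), and the log2 fold change was 0.23 (SE 0.18, 95% interval -0.19 to 0.66, adjusted p in edgeR = 0.626).

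POLRMT (chr19:617224-633604, minus strand), the polymerase itself, was at 26.7, 25.8 and 24.5 normalised CPM in DMSO and at 36.1, 28.9 and 9.43 in SGC707. The DMSO libraries lay close together, SGC707 A and B lay above all of them, and SGC707 C lay far below. The raw counts behind those SGC707 values were 597, 460 and 121. The means of 25.7 ± 1.12 in DMSO and 24.8 ± 13.8 in SGC707 (SD, n = 3) were alike while the spreads were not. The log2 fold change was -0.05 (SE 0.42, 95% interval -1.01 to 0.92, adjusted p in edgeR = 0.974), the widest interval among the 10 genes.

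TFB2M (chr1:246540560-246566324, minus strand), which opens the promoter DNA for the polymerase, was at 35.96, 40.4 and 40.4 normalised CPM in DMSO and at 44.4, 41.6 and 47.2 in SGC707. Each SGC707 library lay above each DMSO library, by little: the lowest SGC707 value was 41.6 and the highest DMSO value 40.4. The means were 38.9 ± 2.57 and 44.4 ± 2.83 (SD, n = 3) and the log2 fold change was 0.19 (SE 0.15, 95% interval -0.15 to 0.53, adjusted p in edgeR = 0.622).

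TEFM (chr17:30897336-30906820, minus strand), the elongation factor, had the lowest counts of the 10 genes, 46 to 51 per library in DMSO and 80 to 98 in SGC707. At the lowest of these, 46 counts, the 95% Poisson interval of 33.7 to 61.4 counts covers counting error only. TEFM stood at 4.86, 4.89 and 4.14 normalised CPM in DMSO and at 5.92, 5.47 and 6.24 in SGC707, with no overlap between the groups. The means were 4.63 ± 0.424 and 5.88 ± 0.384 (SD, n = 3) and the log2 fold change was 0.34 (SE 0.23, 95% interval -0.18 to 0.87, adjusted p in edgeR = 0.565). Exons of TEFM overlap those of ADAP2 over 301 bases and those of AC130324.3 over 542 bases, both on the opposite strand. No source used here gives the strand setting of the counting, so reads from those stretches cannot be assigned with certainty.

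The proteins that bind and keep mitochondrial mRNA gave values in opposite directions. LRPPRC (chr2:43886508-43996005, minus strand), an RNA-binding protein of the pentatricopeptide repeat family that keeps mitochondrial mRNAs stable and available for polyadenylation, was at 269.4, 251.7 and 304.9 normalised CPM in DMSO and at 277.8, 299.8 and 400.5 in SGC707. SGC707 A and B lay within the DMSO range and SGC707 C above it. The means were 275.4 ± 27.1 and 326.1 ± 65.4 (SD, n = 3) and the log2 fold change was 0.24 (SE 0.18, 95% interval -0.16 to 0.65, adjusted p in edgeR = 0.591).

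SLIRP (chr14:77708071-77761104, plus strand), the small partner that binds LRPPRC, was at 19.8, 22.8 and 16.3 normalised CPM in DMSO and at 16.3, 15.2 and 14.1 in SGC707. The groups touched only where DMSO C and SGC707 A stood at 16.3. The means were 19.6 ± 3.25 and 15.2 ± 1.10 (SD, n = 3) and the log2 fold change was -0.37 (SE 0.20, 95% interval -0.82 to 0.08, adjusted p in edgeR = 0.481). Exons of SLIRP overlap SNW1 on the opposite strand over 118 bases, which brings the same uncertainty as for TEFM. They also overlap C14orf178 over 275 bases on the same strand, where a strand setting would not separate the reads. C14orf178 is not a row of the count table.

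TBRG4 (chr7:45100100-45112047, minus strand), also known as FASTKD4 and a regulator of the stability of several mitochondrial mRNAs, was at 30.4, 32.5 and 33.6 normalised CPM in DMSO and at 39.9, 39.3 and 20.5 in SGC707. As for POLRMT, SGC707 A and B lay above all DMSO libraries and SGC707 C lay below them. The means were 32.2 ± 1.60 and 33.2 ± 11.05 (SD, n = 3) and the log2 fold change was 0.05 (SE 0.26, 95% interval -0.55 to 0.65, adjusted p in edgeR = 0.955). Over 132 bases TBRG4 exons overlap SNORA5B on the same strand.

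GRSF1 (chr4:70815782-70839945, minus strand), a G-rich sequence binding protein of the mitochondrial RNA granules, had the smallest p of the 10 genes. It was at 64.5, 56.0 and 79.6 normalised CPM in DMSO and at 72.6, 89.1 and 103.7 in SGC707. The groups overlapped because DMSO C exceeded SGC707 A, and the other SGC707 libraries lay above all DMSO libraries. The means were 66.7 ± 11.9 and 88.5 ± 15.6 (SD, n = 3) and the log2 fold change was 0.41 (SE 0.20, 95% interval -0.04 to 0.86, adjusted p in edgeR = 0.440).

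Both genes of the degradation pair had lower means in SGC707, and neither passed. SUPV3L1 (chr10:69180232-69209099, plus strand), the helicase that unwinds RNA for decay, was at 36.1, 33.9 and 44.0 normalised CPM in DMSO and at 26.6, 29.7 and 33.9 in SGC707. SGC707 C and DMSO B both stood at 33.9 when rounded, so the separation of the groups rests on the second decimal. The means were 38.0 ± 5.32 and 30.1 ± 3.64 (SD, n = 3) and the log2 fold change was -0.34 (SE 0.18, 95% interval -0.75 to 0.07, adjusted p in edgeR = 0.479).

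PNPT1 (chr2:55634265-55693910, minus strand), the exonuclease that works with it and also acts on RNA elsewhere in the organelle, was at 40.2, 44.3 and 44.3 normalised CPM in DMSO and at 37.5, 37.8 and 47.3 in SGC707. SGC707 A and B lay below all DMSO libraries and SGC707 C above them. The means were 42.9 ± 2.33 and 40.9 ± 5.57 (SD, n = 3) and the log2 fold change was -0.07 (SE 0.16, 95% interval -0.44 to 0.30, adjusted p in edgeR = 0.887). TFAM, POLRMT and PNPT1 have processed pseudogenes that are not rows of the table, and no source used here says how reads shared with them were treated.

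The intervals come from the edgeR fit with TMM scaling on all 6 libraries, and bound only what that fit could have missed. They do not cover a change of scale or of correction, and they rest on a scatter that may be technical. For POLRMT the 95% interval reached from a fold of 0.495 to 1.90, so a change near 2-fold in either direction lies at its edge. For the other 9 genes the lowest bound was a fold of 0.566, for SLIRP, and the highest was 1.83, for TEFM.

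**Figure D2:**
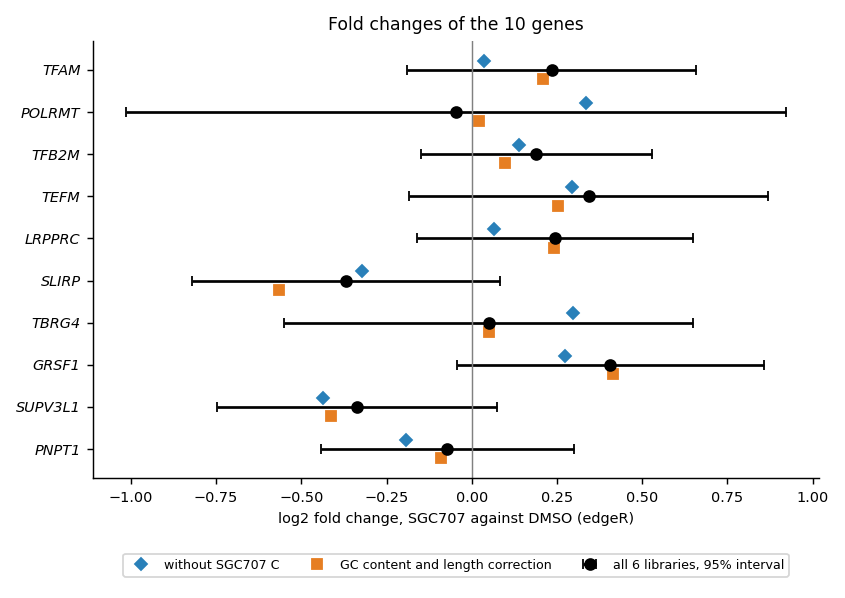
The log2 fold change of SGC707 against DMSO (x axis) for each of the 10 genes (y axis), from edgeR on all 6 libraries with its 95% interval (circle and bar), without SGC707 C (diamond) and after a correction for GC content and length (square). Each of the 10 bars crosses 0, and POLRMT has the widest.

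POLRMT and TBRG4 share a feature of sequence that the choice of genes did not use. The longest protein-coding transcript of POLRMT is 66.3% GC and that of TBRG4 59.2%, and the other 8 genes lie between 37.1 and 45.7%. On the log2 scale SGC707 C differed from the mean of SGC707 A and B by -1.78 for POLRMT and by -0.95 for TBRG4. For the other 8 genes the same difference ranged from -0.16, for SLIRP, to 0.52, for TFAM. Over nuclear genes the median of this difference was -1.02 between 60 and 70% GC, -0.56 between 55 and 60%, and 0.34 between 40 and 45%, so every one of the 10 genes except SLIRP lay on the same side of 0 as the genes of its GC class.

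**Figure D3:**
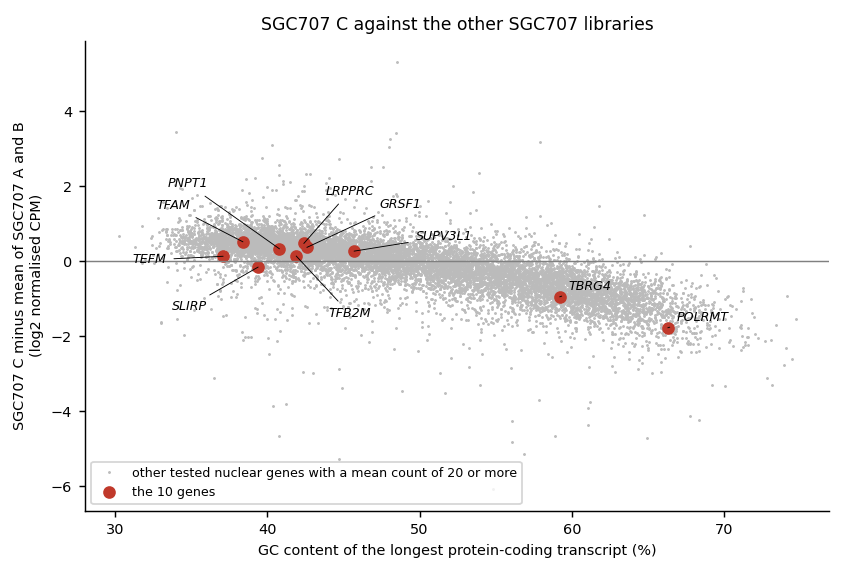
Level in SGC707 C minus the mean of SGC707 A and B (y axis, log2 of normalised CPM) against the GC content of the longest protein-coding transcript (x axis, percent), with the 10 genes in red and other tested nuclear genes in grey. POLRMT, at 66.3% GC, and TBRG4, at 59.2%, lie low with the grey points of their GC content, and SLIRP is the only one of the other 8 genes below 0.

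Leaving out SGC707 C changed the order of the genes. POLRMT then had a log2 fold change of 0.34 and TBRG4 of 0.30 (adjusted p in edgeR = 0.159 and 0.132), while TFAM moved to 0.04 and LRPPRC to 0.06 (adjusted p in edgeR = 0.847 and 0.734). SUPV3L1 was at -0.44 (adjusted p in edgeR = 0.108). POLRMT, TBRG4 and SUPV3L1 then had an unadjusted p under 0.05, 3 of 10 genes, against 30.0% of all tested genes, and none of the 10 passed after adjustment, against 9.26%. The SGC707 libraries lay wholly above DMSO for 4 genes, POLRMT, TFB2M, TEFM and TBRG4, against 26.0% of all tested genes. They lay wholly below for 3 genes, SLIRP, SUPV3L1 and PNPT1, against 24.2%. These counts of separate groups without SGC707 C were chosen after seeing the data. SGC707 A and B, the libraries kept, had the highest correlations with GC content, 0.53 and 0.34. POLRMT and TBRG4 are the most GC-rich of the 10 genes, and the part of GC content in their values without SGC707 C was not tested.

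A correction for GC content and transcript length, fitted library by library over nuclear genes, kept all 6 libraries. TFAM then stood at 74.6, 73.5 and 81.2 corrected CPM in DMSO and at 89.9, 86.8 and 88.3 in SGC707. POLRMT stood at 22.5, 22.8 and 25.1 in DMSO and at 26.3, 25.2 and 19.5 in SGC707, still with SGC707 C lowest. GRSF1 stood at 64.2, 56.3 and 78.2 in DMSO and at 82.0, 94.7 and 87.9 in SGC707. With the correction the groups of GRSF1 and TFAM no longer overlapped.

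LRPPRC was at 268.5, 253.3 and 299.3 corrected CPM in DMSO and at 313.8, 319.1 and 338.4 in SGC707. SLIRP was at 22.9, 24.6 and 16.1 in DMSO and at 16.1, 15.4 and 11.4 in SGC707, and SUPV3L1 was at 37.4, 35.4 and 43.9 in DMSO and at 27.5, 29.8 and 30.4 in SGC707. On this scale TFAM, LRPPRC and GRSF1 lay wholly higher, against 15.0% of all tested genes, and SLIRP and SUPV3L1 wholly lower, against 14.8%. For SLIRP that separation is between values that both round to 16.1. These 5 genes had an unadjusted p under 0.05, against 23.9% of all tested genes, and none passed after adjustment. The corrected log2 fold changes were 0.21 for TFAM, 0.24 for LRPPRC, 0.41 for GRSF1, -0.57 for SLIRP and -0.41 for SUPV3L1, with adjusted p in edgeR of 0.186, 0.174, 0.122, 0.154 and 0.1005. POLRMT was at 0.02 and TBRG4 at 0.05 with the correction (adjusted p in edgeR = 0.945 and 0.827). TFB2M and TEFM, whose groups had been separate without the correction, overlapped with it. Adding the replicate block to the correction left 1 of the 10 genes higher and 2 lower at an unadjusted p under 0.05 by edgeR. Over all 12196 tested genes that fit gave 1005 higher and 1281 lower.

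The scale decided how many of the 10 genes passed. With library totals in place of TMM scaling, the median log2 fold change was 0.69 over all tested genes and 0.81 over the 10 genes. All 10 fold changes were then positive, and TFAM, TFB2M, TEFM, LRPPRC and GRSF1 passed at an adjusted p under 0.05 by edgeR, 5 of 10 genes, against 21.1% of all tested genes called higher. Their log2 fold changes on that scale were 0.86, 0.85, 1.02, 0.87 and 1.03, to be read beside the median of 0.69. Summed over the 10 genes, counts came to 984.9 to 1185 CPM of nuclear counts in DMSO and to 1167 to 1350 in SGC707, ranges that overlap. LRPPRC alone made up a large part of that sum, with 2825 of 6308 counts in DMSO A and 5139 of 10205 in SGC707 C.

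Per length of the longest transcript, the 10 genes differed widely from one another. In DMSO the mean was 43.5 ± 4.28 normalised CPM per kilobase (SD, n = 3) for LRPPRC, the most abundant, and 2.20 ± 0.201 for TEFM, the least. SLIRP at 22.7 ± 3.75 and TFB2M at 21.1 ± 1.39 followed LRPPRC, and their DMSO ranges overlapped. SUPV3L1 at 15.3, TBRG4 at 14.3 and TFAM at 14.1 came next and overlapped each with its neighbour. GRSF1 at 10.005 and PNPT1 at 9.74 overlapped too, and POLRMT at 6.69 ± 0.291 lay below them and above TEFM. On this scale the polymerase and its elongation factor were the 2 lowest of the 10 transcripts in DMSO. The order rests on the longest transcript, which need not be the one expressed, and the values were not corrected for GC content.

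Ratios of counts within a library do not depend on the scaling between libraries, and 5 pairs of genes with joint function were compared. The ratios used raw counts and were not corrected for GC content or length, which can differ within a pair. The longest transcripts of SLIRP and LRPPRC are 865 and 6335 bases, and those of POLRMT and TFAM are 66.3 and 38.4% GC. The exact two-sided permutation test over 3 against 3 libraries cannot go below 0.1. SLIRP to LRPPRC was 0.0736, 0.0905 and 0.0534 in DMSO and 0.0587, 0.0506 and 0.0352 in SGC707. The mean log2 ratio was lower in SGC707 by a difference of -0.59, a fold of 0.665, with SGC707 A lying within the DMSO range (exact permutation p = 0.2, adjusted over the 5 ratios 0.5).

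PNPT1 to SUPV3L1 was 1.12, 1.31 and 1.01 in DMSO and 1.41, 1.27 and 1.40 in SGC707, a log2 difference of 0.26 (exact permutation p = 0.2, adjusted 0.5). The groups overlapped only between DMSO B and SGC707 B. POLRMT to TFAM was 0.363, 0.359 and 0.293 in DMSO and 0.465, 0.364 and 0.0839 in SGC707 (log2 difference -0.48, exact permutation p = 1, adjusted 1). SGC707 C alone set its sign, and without it the log2 difference was 0.29. TFB2M to TFAM differed by -0.03 on the log2 scale (exact permutation p = 1), and TEFM to POLRMT by 0.60 (exact permutation p = 0.7), the last from 0.164, 0.189 and 0.661 in SGC707 against 0.182, 0.189 and 0.169 in DMSO. Without SGC707 C the difference in TEFM to POLRMT was -0.03.

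**Figure D4:**
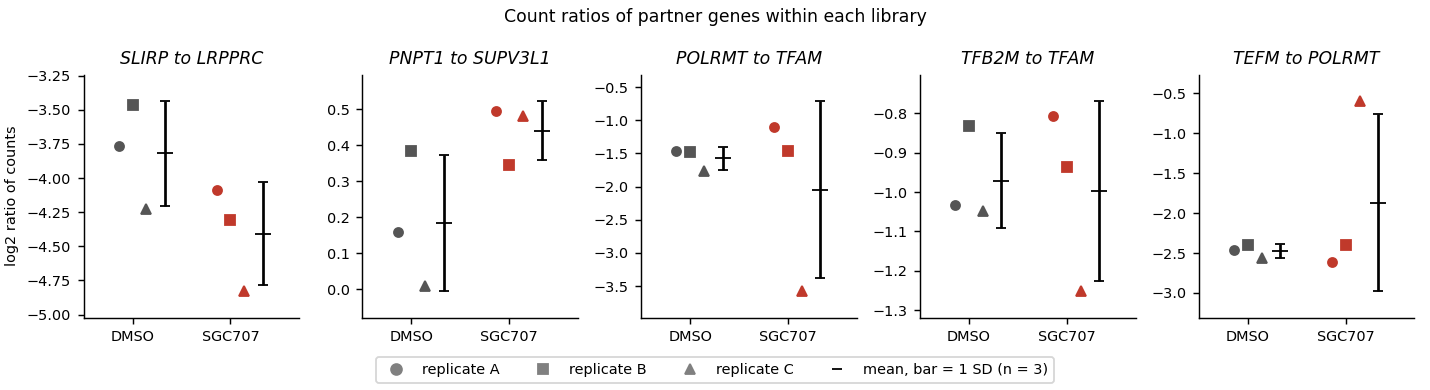
Log2 ratio of the counts of 2 genes within each library (y axis) in DMSO and SGC707 (x axis) for the 5 pairs, with circles, squares and triangles for replicates A, B and C and the mean with a bar of 1 SD (n = 3). SGC707 C departs from the other libraries in both ratios that hold POLRMT.

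The RNA on which these proteins act was lower relative to nuclear RNA in the SGC707 libraries. The 13 mitochondrially encoded protein genes made up 53.6 ± 7.02% of counts in DMSO and 29.1 ± 7.45% in SGC707 (SD, n = 3, exact two-sided permutation p = 0.1, the smallest this design allows). Of the 13 genes 12 had negative log2 fold changes, from -1.12 to -1.92. All 13 had an unadjusted p under 0.05 by edgeR, against 12.8% of all tested genes. None passed adjustment in the uncorrected fit of all 6 libraries with TMM scaling. Without SGC707 C edgeR called 1 higher and 12 lower, against 9.26% of all tested genes. With library totals it called 1 higher and 7 lower, against 2574 and 31 of 12196 genes. With the GC content and length correction it called 1 higher and 0 lower, against 9 and 54 of 12196. DESeq2 called all 13, against 288 of 15260 genes. MT-ND6, which is transcribed from the opposite strand from the rest, was the exception at 25.6 ± 3.63 normalised CPM in DMSO and 60.8 ± 0.961 in SGC707 (log2 fold change 1.25, SE 0.16, adjusted p in edgeR = 0.115). Without a stated strand setting, reads antisense to MT-ND6 may be among its counts. Beside these, the 10 nuclear genes had log2 fold changes between -0.37, for SLIRP, and 0.41, for GRSF1. Whether the factors' levels bear on the level of the mitochondrial RNA was not tested.

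Of 58 further genes of mitochondrial DNA copying, RNA cutting, modification and regulation, 57 were tested, and the coactivator PPARGC1A was left out for low counts. DESeq2 and limma-voom called none of them, against 288 of 15260 and 2 of 12196 genes. By edgeR none passed at an adjusted p under 0.05, against 3 of 12196 genes. At an unadjusted p under 0.05, 4 were higher and 2 lower in SGC707, against the 12.8% of all tested genes. The median log2 fold change was 0.16, with 38 positive and 19 negative, and the groups did not overlap for 10 genes higher and 3 lower, against 10.8% and 9.78% of all tested genes.

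Among genes that copy mitochondrial DNA, TWNK, the replicative helicase, was at 55.1, 39.1 and 36.3 normalised CPM in DMSO and at 70.6, 69.1 and 63.8 in SGC707. All SGC707 libraries lay above DMSO, the mean going from 43.5 ± 10.2 to 67.8 ± 3.56 (SD, n = 3), with a log2 fold change of 0.64 (SE 0.19, adjusted p in edgeR = 0.270). The exonuclease MGME1 had a log2 fold change of 0.52 (adjusted p in edgeR = 0.384), with the groups separate. For RNA ends, the poly(A) polymerase MTPAP was at 0.33 and the deadenylase PDE12 at 0.19, and in the FASTK family FASTKD1 was at 0.40 and FASTKD5 at 0.21, none past the threshold.

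Among RNA-modifying enzymes the pseudouridine synthase RPUSD3 had the smallest p of the list, at 12.7, 16.5 and 12.4 normalised CPM in DMSO and 9.37, 7.74 and 5.77 in SGC707. The log2 fold change was -0.86 (SE 0.25, adjusted p in edgeR = 0.266), with the groups separate. The methyltransferase MRM2, which acts on mitochondrial rRNA, was at 25.1 ± 4.50 in DMSO and 36.8 ± 2.16 in SGC707 (SD, n = 3, log2 fold change 0.55, adjusted p in edgeR = 0.2997). Among granule and ribosome helpers RCC1L had a log2 fold change of 0.38 and PTCD3 of 0.32, both with separate groups and neither past the threshold.

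The nuclear regulators had fold changes of both signs. PPRC1, a coactivator of NRF1, was at 90.5, 100.4 and 73.5 normalised CPM in DMSO and 64.5, 63.1 and 45.7 in SGC707, all lower, with a log2 fold change of -0.61 (SE 0.19, adjusted p in edgeR = 0.290). The nuclear receptor ESRRA was at 4.96, 4.01 and 4.86 in DMSO and 9.97, 13.1 and 2.65 in SGC707, with SGC707 C again far below the other SGC707 libraries. Its log2 fold change was 0.90 (SE 0.51, adjusted p in edgeR = 0.504). Without SGC707 C it was the only one of the 57 genes to pass, at 1.32 (adjusted p in edgeR = 0.0277), against 9.26% of all tested genes in that fit.

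**Figure D5:**
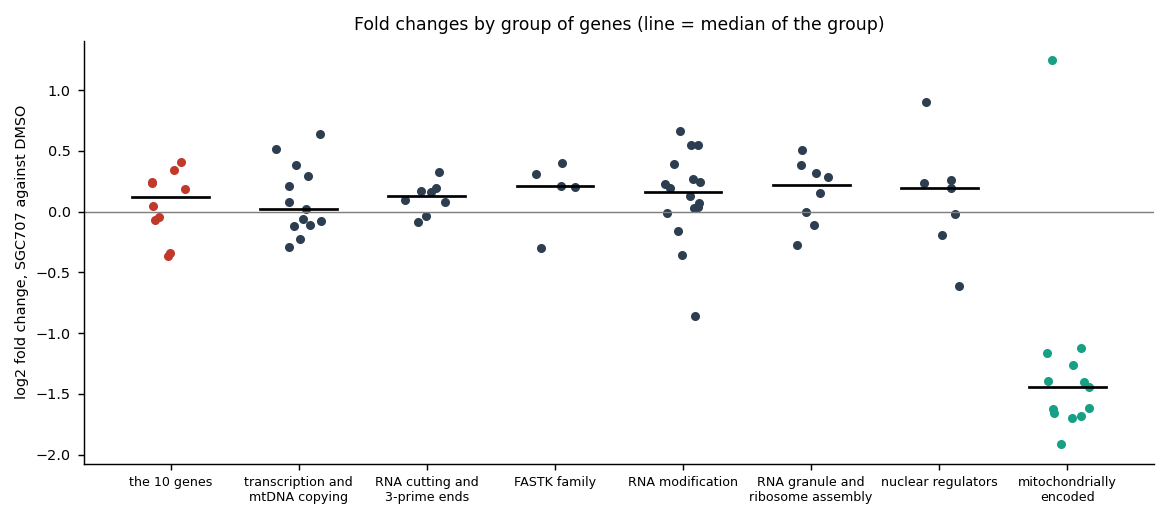
Log2 fold change of SGC707 against DMSO (y axis) of the 10 genes, of 57 further genes in 6 groups and of the 13 mitochondrially encoded genes, with a line at each group's median. Each nuclear group centres near 0, between 0.02 and 0.22, while 12 of the 13 mitochondrially encoded genes lie below -1.

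The genes whose pattern over the 6 libraries was most like that of GRSF1 were TAPT1, FAM20B and SLC25A24, with Pearson r of log2 CPM of 0.995, 0.993 and 0.989 among the 9326 genes whose counts averaged 100 or more. With 160 genes at r of 0.95 or more over the same 6 libraries, which share depth and composition, this is a description of rank and carries no p. Tested genes whose promoter window held the open NRF1 core had a median log2 fold change of 0.03, beside 0.02 for those without it, and for the ETS site the medians were 0.05 and 0.02.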

How the data were processed

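Per the labels' protocols, DNase-treated RNA was used for mRNA libraries and sequenced as paired reads. The authors deposited a table of whole-number counts per gene symbol, not scaled between libraries. HISAT2, StringTie and build GRCh38 are named per the submitters' processing notes, and no source used here gives versions, annotation or strand setting. Groups follow the treatment in the labels.

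Counts were filtered with filterByExpr, scaled with TMM and fitted over all genes with edgeR 4.0.16 (quasi-likelihood, robust) in R 4.3.3, with Benjamini-Hochberg adjustment and a threshold of 0.05. Alternatives were RLE factors, library totals, TMM without mitochondrial genes, no filter, a stricter filter, DESeq2 1.42.0, limma-voom 3.58.1, a replicate block, a lowess correction for GC content and length (span 0.3, as edgeR offsets) and leaving out each library. Counts of separate groups without SGC707 C, corrected values per library and all alternatives for the pathway genes and the mitochondrially encoded genes were added after seeing the data. Ratios and shares were tested with exact permutations. Gene positions, GC content and lengths came from GENCODE 29 by symbol, and promoter windows from RefSeq. The fits were also run on simulated data. Genes there varied independently and the shift in mitochondrial share was not built in, so those runs do not stand for these libraries.

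All 10 genes are reported. From the other pathway genes, those past the threshold and the 2 with the smallest p in each of 6 lists are named, as are the 3 genes most like the gene with the smallest p. The genes and lists were chosen with earlier results of these data known. Intervals on counts cover counting error only.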

Additional observations from a re-analysis of the deposited data

How the results depend on the processing

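Of 160 alternative values for the 10 genes, 145 kept their direction and side of the threshold, 5 came past the threshold and 10 changed sign. For the other named genes the numbers were 193, 13 and 1 of 207. Genes called over the whole table, 3 as reported, were 2605 with library totals (2574 higher, 31 lower), 6 with no filter, 288 with DESeq2, 63 with the GC content and length correction, and 0 to 1147 when 1 library was left out (1147 without SGC707 C, 9 without SGC707 A, 5 without DMSO C). Library totals called 5 of the 10 genes and 17 of the 57 pathway genes. Leaving out 1 library called 0 to 1 pathway genes. With library totals the sign turned for POLRMT (0.70), SLIRP (0.34), SUPV3L1 (0.30), PNPT1 (0.58) and PPRC1 (0.11). POLRMT was 0.021 with the correction, 0.0091 with the correction and the replicate block, and -0.41 to 0.34 when 1 library was left out. TBRG4 was -0.10 to 0.30 when 1 library was left out. Log2 ratio differences then ran from -0.95 to 0.29 for POLRMT to TFAM, -0.12 to 0.10 for TFB2M to TFAM and -0.031 to 0.97 for TEFM to POLRMT. Without SGC707 C, 4 of the 10 genes were wholly higher and 3 wholly lower, and of the 57 pathway genes 22 and 7, against 26.0% and 24.2% of all tested genes. With the replicate block 0 genes were called and TBRG4 was -0.0077. For pairing, the deviations of each library from its own group mean were correlated between DMSO and SGC707 over 11619 genes. They correlated at 0.0845, -0.00102 and 0.124 for the same letters A, B and C. For different letters the values ran from -0.116 to 0.107, so only C stood above that range. The letters were not taken as pairs. The cause of these shifts was not tested. Depth limits TEFM most.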
